A study of Mus musculus with 8 samples.

Results

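The genes described here encode the negative feedback of the ERK pathway. They are the dual-specificity phosphatases Dusp1, Dusp2, Dusp4, Dusp5 and Dusp6, the Sprouty genes Spry1, Spry2 and Spry4, and the Spred genes Spred1 and Spred2. Every array probe that carries one of these 10 symbols was taken, which gave 17 probes for 9 genes out of 18120 symbols on the array. Dusp5 was not analysed here, since no probe carries its symbol. RNA came from STHdh cells, a wild-type mouse line immortalized from embryonic striatum, so all samples share 1 cell line. The 4 Bcl11b samples were transfected with the pcDNA3.1 plasmid carrying Bcl11b, and the 4 mock samples with the empty pcDNA3.1 plasmid, and both were harvested 2 days later. The labels also call the mock group wild-type. Transfected and untransfected cells of a culture were measured together, so fewer cells expressing a gene and less RNA per cell cannot be told apart. The question addressed is which transcripts differed when Bcl11b, a zinc finger transcription factor enriched in the striatum, was overexpressed.

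When growth factors or neurotrophins activate Ras, the signal passes through Raf and MEK to the ERK kinases. Many feedback inhibitors are themselves transcribed in response to ERK activity. Dual-specificity phosphatases remove the activating phosphates from MAP kinases, with Dusp1, Dusp2, Dusp4 and Dusp5 in the nucleus and Dusp6 in the cytoplasm, where it acts mainly on ERK. Sprouty proteins interrupt signalling between receptor tyrosine kinases and Raf, and Spred proteins recruit the Ras inhibitor neurofibromin to the membrane.

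No feedback gene differed between Bcl11b and mock cells after adjustment over all probes. Single probes of 4 of them passed an unadjusted threshold, in opposite directions. These 4 of 17 probes had an unadjusted p under 0.05 from limma with 1 group at least 25% above the other. Among all probes on the array, 9.02% did. Of the 7 feedback probes detected on all arrays 3 passed, against 14.3% of all probes so detected. With so few probes these shares only describe the data. Dusp6 was higher with Bcl11b, by 1.32-fold on its brightest probe. That direction turned when the arrays were not normalized to each other, where the median log2 difference of well-detected probes was -0.68. Dusp4 was lower by 1.27-fold and Spred1 by 1.32-fold on their brightest probes. A dim Spred2 probe that no Bcl11b array detected also had lower signals. The brightest Spred2 probe, and Spry4, had higher means with Bcl11b within the spread of the arrays. Dusp1 had nearly the same signal in both groups.

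The sequence just upstream of the start of a gene is where inducible feedback genes receive part of their transcriptional input. The 250 bases before the RefSeq gene start (build GRCm38.p6) are shown for Dusp6, Spred1 and Spred2, which had the smallest p-values among the genes with a sequence in the table used, and for Dusp1, a bright phosphatase whose signal hardly differed. Capitals mark the motifs found on either strand, and lower case marks all other bases.
Dusp6, chr10:99262981-99263230, plus strand: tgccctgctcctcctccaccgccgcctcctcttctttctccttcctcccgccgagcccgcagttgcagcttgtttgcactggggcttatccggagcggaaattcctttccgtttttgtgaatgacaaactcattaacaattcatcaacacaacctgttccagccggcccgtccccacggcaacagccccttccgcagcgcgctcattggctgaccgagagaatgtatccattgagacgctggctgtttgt
Dusp1, chr17:26508473-26508722, minus strand: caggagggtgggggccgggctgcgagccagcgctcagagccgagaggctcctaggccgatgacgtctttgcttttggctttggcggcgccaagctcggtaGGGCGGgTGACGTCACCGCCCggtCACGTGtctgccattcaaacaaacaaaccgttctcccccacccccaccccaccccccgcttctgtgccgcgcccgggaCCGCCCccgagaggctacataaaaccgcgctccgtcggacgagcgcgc
Spred1, chr2:117120821-117121070, plus strand: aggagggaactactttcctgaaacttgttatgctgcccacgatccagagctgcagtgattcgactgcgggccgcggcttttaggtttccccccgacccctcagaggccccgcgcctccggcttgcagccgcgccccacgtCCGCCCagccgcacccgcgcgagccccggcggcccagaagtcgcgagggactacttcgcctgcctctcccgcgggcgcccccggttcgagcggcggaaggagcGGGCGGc
Spred2, chr11:19924192-19924441, plus strand: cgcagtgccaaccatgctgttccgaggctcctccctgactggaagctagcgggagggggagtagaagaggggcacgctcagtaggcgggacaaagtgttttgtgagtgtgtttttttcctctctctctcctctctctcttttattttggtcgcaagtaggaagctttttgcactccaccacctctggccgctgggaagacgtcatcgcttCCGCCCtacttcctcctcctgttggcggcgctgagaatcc

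In all, 7 motifs were searched on both strands. They were the cAMP response element (TGACGTCA), the AP-1 site (TGANTCA), an ETS site (CCGGAA), the GC box (GGGCGG), the E-box (CACGTG), the TATA box (TATAAA) and the CArG box of Srf. The Dusp1 window held 1 cAMP response element, 143 bases before the start, directly beside a GC box, and this element occurs in 1.55% of the 32851 windows of the same length in the table. It held 3 GC boxes in all and 1 E-box, found in 32.7% and 6.02% of the windows. The Spred1 window held 2 GC boxes and the Spred2 window 1. None of the 7 motifs was found in the Dusp6 window. The AP-1, ETS, TATA and CArG letters, present in 6.75%, 12%, 12.4% and 1.47% of the windows, were found in none of the 4 windows shown. A match is a string of letters and was not tested as a binding site. Of the members not shown, Dusp2, Dusp5, Spry1 and Spry2 also had windows in the table. The Dusp2 window held 3 GC boxes and 1 E-box, and the Dusp5 window 1 GC box and 2 CArG boxes. The Spry1 window held 1 GC box, and the Spry2 window none of the motifs. Dusp4 had no window in the table, and none was used for Spry4.

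Each probe on these Illumina arrays is read from many beads, and the deposited value is the mean bead signal after background subtraction, with a detection p-value against negative control beads. A probe is called detected on an array when that p-value was under 0.01. Of the 17 probes, 7 were detected on all 8 arrays, 6 on some and 4 on none, and 7 of the 9 genes had a probe detected on at least 1 array. Neither Spry1 probe nor the Spry2 probe was detected on any array, so Spry4 was the Sprouty gene measured. Before normalization the mock arrays were brighter, with median signals of 31.6 to 53.9 against 20.1 to 30.2 on the Bcl11b arrays. All log2 signals below are after quantile normalization, and the number of arrays limits their precision. The arrays showed Nes and Sox2 of the progenitor markers on all 8 arrays, and none of the 6 striatal projection neuron markers with a probe, Bcl11b included, on any array. The level of the transfected gene was therefore not measured. Of 3 microglial markers Cd68 was detected on 2 Bcl11b arrays and no mock array, at least 1.13-fold higher (adjusted p = 0.187 from limma), and Aif1 and Cx3cr1 on none. Its part in the results was not tested.

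Across all 25697 probes, 252 passed an adjusted p-value of 0.10 from limma, which is 0.981% of them. None of the 17 probes of the feedback genes did, and their smallest adjusted p was 0.253. Under the study's second criterion, an unadjusted p-value under 0.05 with one group at least 25% above the other, 4 of the 17 probes passed, 3 lower and 1 higher, where 9.02% of all probes did. Among the 7 probes detected on all arrays 3 passed, 2 lower and 1 higher, against 14.3% of the 9360 probes detected on all arrays. Of the 3 lower among the 17, 1 was a Spred2 probe that no Bcl11b array detected. With so few probes these shares are a description only.

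Dusp6 encodes the cytoplasmic ERK phosphatase. On its brightest probe (ILMN_2925711) the log2 signal was 11.63, 11.80, 11.53 and 11.74 on mock arrays 1 to 4 and 11.88, 12.06, 11.92 and 12.43 on Bcl11b arrays 1 to 4. Every Bcl11b array lay above every mock array, although the lowest Bcl11b array was close to the highest mock array, and Bcl11b replicate 4 was the highest of all. Among probes detected on all arrays, 9.88% had groups that did not overlap in either direction, and of the 7 feedback probes this was the 1 that did not. The means were 11.68 ± 0.12 (SD, n = 4) and 12.07 ± 0.25 (SD, n = 4). The difference was 0.40 on the log2 scale (standard error 0.13, 95% interval 0.073 to 0.72), with an unadjusted p of 0.0236 and an adjusted p of 0.371 from limma. It no longer passed the unadjusted threshold without mock replicate 1, with an unadjusted p of 0.0561 from limma, or without mock replicate 3, with 0.062. With division of each array by its median as the scaling, the difference was 0.57 and the adjusted p 0.0749 from limma, past the adjusted threshold. With no normalization between arrays it was -0.19, where the median difference of the probes detected on all arrays was -0.68.

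A second Dusp6 probe (ILMN_1248537) was detected on all arrays. Its log2 signal was 9.45, 9.28, 9.02 and 9.75 on the mock arrays and 9.58, 9.87, 9.43 and 10.08 on the Bcl11b arrays. The groups overlapped, since mock replicate 4 lay above Bcl11b replicates 1 and 3. Its difference of 0.37 (standard error 0.20) was close in size to that of the first probe and did not pass the threshold, with an unadjusted p of 0.119 and an adjusted p of 0.663 from limma. It also was negative, at -0.34, with no normalization between arrays, against the median of -0.68 given above. The third Dusp6 probe (ILMN_2701321) was detected on Bcl11b replicate 4 alone, and no fold change is given for it.

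Dusp4 encodes a nuclear phosphatase of ERK and of the stress-activated kinases. On its brightest probe (ILMN_2689731) the log2 signal was 10.03, 10.09, 9.65 and 10.15 on the mock arrays and 9.49, 9.73, 9.53 and 9.80 on the Bcl11b arrays. Mock replicate 3 fell among the Bcl11b arrays, and the other 3 mock arrays lay above all of them. The difference was -0.34 (standard error 0.13, 95% interval -0.66 to -0.026), with an unadjusted p of 0.0379 and an adjusted p of 0.438 from limma. The unadjusted p stayed under 0.05 without mock replicate 3 (0.00302) or Bcl11b replicate 4 (0.0357), and lay between 0.0527 and 0.092 without any 1 of the other arrays, all from limma. On division by the array median the difference was -0.28, with an unadjusted p of 0.0537. The second Dusp4 probe (ILMN_2870965), at 7.79 ± 0.25 (SD, n = 4) in mock and 7.70 ± 0.15 (SD, n = 4) in Bcl11b cells, differed by -0.095 with an interval from -0.43 to 0.24, so a difference of the size seen on the first probe lies within it. The third Dusp4 probe was not detected on any array.

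Dusp1 encodes the nuclear phosphatase that is induced as an immediate early gene by growth factors and stress. Its 1 probe (ILMN_2622983) gave log2 signals of 11.46, 11.49, 11.45 and 11.44 on the mock arrays and 11.44, 11.48, 11.24 and 11.48 on the Bcl11b arrays. The mock arrays were within a narrow range, and Bcl11b replicate 3 alone was lower. The difference was -0.052 (standard error 0.057, adjusted p = 0.851 from limma), with a 95% interval of -0.19 to 0.086 on the log2 scale. Its sign turned without Bcl11b replicate 3 (0.0049) and on division by the array median (0.073).

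Dusp2, a nuclear phosphatase known from activated lymphocytes, was dim on both of its probes. The brighter one (ILMN_3009243) was detected on 4 mock and 2 Bcl11b arrays, with log2 signals of 7.35, 6.23, 6.53 and 6.91 on the mock arrays and 6.96, 6.87, 6.19 and 6.14 on the Bcl11b arrays. The groups overlapped over most of their range, and the difference of -0.22 had an interval of -0.98 to 0.55 (adjusted p = 0.96 from limma). The other probe (ILMN_1242406) was detected on 1 mock array and on no Bcl11b array, and no fold change is given for it.

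**Figure D1:**
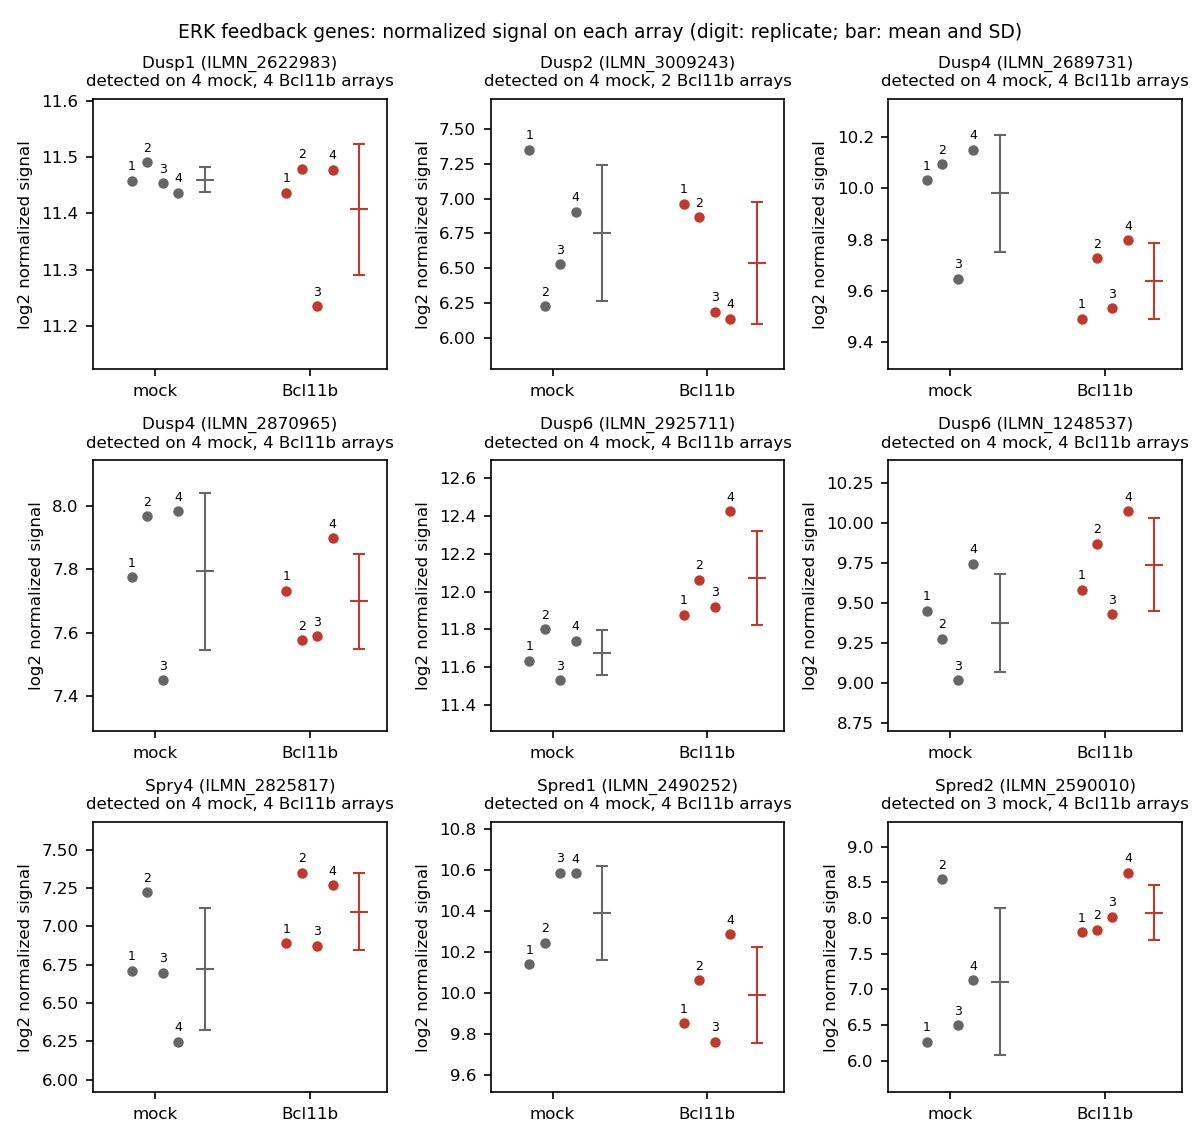
Normalized log2 signal (vertical axis) of the 9 probes detected on at least 6 arrays, for 4 mock (grey) and 4 Bcl11b (red) arrays. Digits are replicate numbers, and the bars give the mean and SD of each group. The Bcl11b arrays of the brightest Dusp6 probe lie above all mock arrays (not so before normalization), those of Dusp4 and Spred1 lie mostly below, and Dusp1 overlaps except for Bcl11b replicate 3.

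Of the Sprouty genes, Spry4 was detected on all arrays. Its probe (ILMN_2825817) had log2 signals of 6.71, 7.22, 6.70 and 6.25 on the mock arrays and 6.89, 7.35, 6.87 and 7.27 on the Bcl11b arrays. The other 3 mock arrays lay below the Bcl11b arrays, and mock replicate 2 lay among them. The difference of 0.38 (standard error 0.23) did not pass the threshold, with an unadjusted p of 0.145 and an adjusted p of 0.684 from limma. Without mock replicate 2 the difference was 0.55 and the unadjusted p 0.0308 from limma. With no normalization between arrays it was -0.34, where the median difference of the probes detected on all arrays was -0.68. With the other scalings it stayed positive, from 0.28 with the lowest signal shifted to 1 to 0.41 on division by the array median.

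Spred1 encodes a membrane-associated inhibitor of Ras signalling. Its probe (ILMN_2490252) gave log2 signals of 10.14, 10.25, 10.59 and 10.58 on the mock arrays and 9.86, 10.06, 9.76 and 10.29 on the Bcl11b arrays. Bcl11b replicates 1, 2 and 3 lay below every mock array, and Bcl11b replicate 4 lay above mock replicates 1 and 2. The difference was -0.40 (standard error 0.16, 95% interval -0.78 to -0.015), with an unadjusted p of 0.0438 and an adjusted p of 0.46 from limma. The unadjusted p stayed under 0.05 without mock replicate 1 (0.028) or Bcl11b replicate 4 (0.0183), and lay between 0.0515 and 0.106 without any 1 of the other arrays, all from limma. On division by the array median the difference was -0.34 and the unadjusted p 0.105 from limma.

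The 3 probes of Spred2, a relative of Spred1, disagreed. The brightest (ILMN_2590010), detected on 3 mock and 4 Bcl11b arrays, had log2 signals of 6.27, 8.55, 6.49 and 7.13 on the mock arrays and 7.80, 7.84, 8.02 and 8.64 on the Bcl11b arrays. Mock replicate 2 stood with the Bcl11b arrays and the other 3 mock arrays lay below them. The difference was 0.97 (standard error 0.53, adjusted p = 0.66 from limma), and without mock replicate 2 it was 1.45 with an unadjusted p of 0.00412 from limma. A dimmer probe (ILMN_2969032) was detected on 2 mock arrays, and none of the Bcl11b arrays detected it. Its log2 signals were 6.03, 6.61, 5.90 and 6.65 on the mock arrays and 5.70, 5.40, 5.63 and 5.49 on the Bcl11b arrays, every Bcl11b array below every mock array. It had the smallest p-value of the feedback probes, 0.0087 unadjusted and 0.253 adjusted from limma. That p-value compares signals that were mostly below detection, so it is not read as support for a change. How often probes this dim separate the groups was not examined. The size of this difference is not given, because the mean log2 signal in mock cells, 6.30, did not exceed the average over the Bcl11b arrays of the dimmest signal that counted as detected, which ranged from 6.27 to 6.46 by array. The third probe (ILMN_2598998) was detected on 1 mock array. The deposited table does not say which part of a transcript a probe reads, so the disagreement cannot be assigned to transcript forms.

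**Figure D2:**
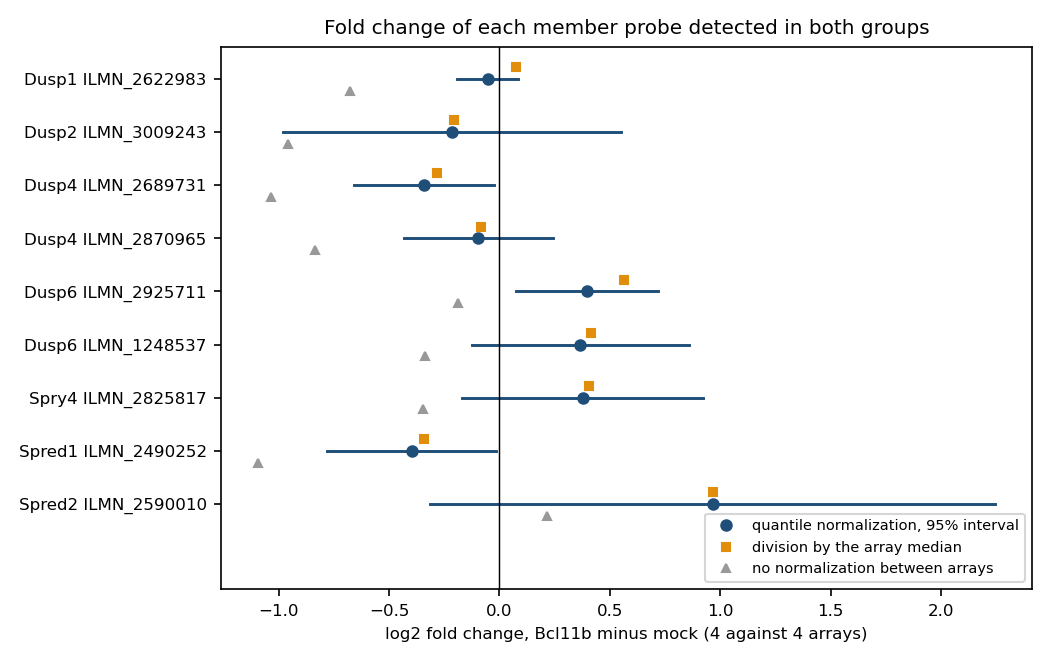
Log2 fold change (Bcl11b minus mock, horizontal axis) of the 9 probes detected in both groups. Circles with lines are the limma estimates after quantile normalization with 95% intervals, squares are after division by the array median, and triangles are without normalization between arrays. Squares stay near the circles, though the Dusp1 square has the opposite sign (0.073 against -0.052). Every triangle lies to the left of its circle, which turns the sign for both Dusp6 probes and Spry4. Without normalization the median difference of the probes detected on all arrays was -0.68.

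Within the groups the same arrays were often high or low on the feedback probes. The 7 probes counted here belong to 5 genes, and whether other probes have the same order was not examined. Bcl11b replicate 4 was the highest Bcl11b array on 5 of the 7 probes detected on all arrays, and Bcl11b replicate 3 was the lowest on 4 of them. Among the mock arrays, replicate 3 was the lowest on 4 probes, and replicates 2 and 4 were each the highest on 3.

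A single brightness factor of an array cancels in the ratio of 2 deposited signals on that array. Differences between arrays that vary with signal level do not cancel, so such ratios can change with the normalization. The ratios were examined after the values above had been seen and carry no test. The log2 ratio of the deposited signals of Dusp6 over Dusp4, each on its brightest probe, was 1.59, 1.65, 1.92 and 1.48 on the mock arrays and 2.51, 2.44, 2.51 and 2.57 on the Bcl11b arrays. The Bcl11b arrays lay close together and well above all mock arrays, and the mean ratio was 1.80-fold higher. Dusp6 over Spred1 was 1.47, 1.51, 0.95 and 1.08 on the mock arrays and 2.14, 2.10, 2.28 and 2.11 on the Bcl11b arrays. This ratio was 1.88-fold higher with Bcl11b, again with no overlap. Both ratios set the gene that was higher over genes that were lower in the same arrays, so their separation restates those differences and is no independent support for them. The ratios also do not say how much of the shift belongs to each gene.

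Dusp6 over Dusp1 was also higher on every Bcl11b array, with ratios of 0.48 to 0.95 against 0.089 to 0.31 in mock cells. Dusp6 over Spry4 overlapped, at 4.91 ± 0.39 (SD, n = 4) in mock and 5.07 ± 0.16 (SD, n = 4) in Bcl11b cells, and Dusp4 over Spred1 did as well, at -0.41 ± 0.40 (SD, n = 4) and -0.35 ± 0.093 (SD, n = 4). Dusp4 over Spry4 was lower on every Bcl11b array, from 2.43 to 2.70 against 2.73 to 3.84. Dusp1 over Dusp4, Spry4 or Spred1, and Spry4 over Spred1, overlapped between the groups. All these ratios restate differences of the single probes, and how often other probe pairs separate the groups was not examined.

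**Figure D3:**
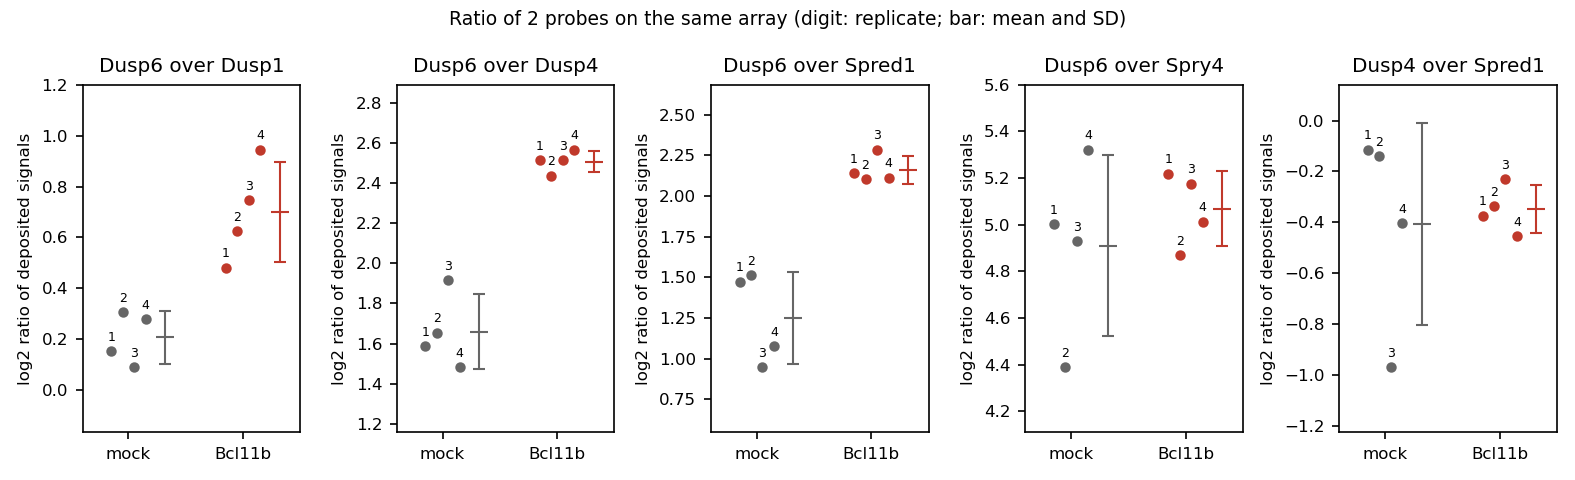
Log2 ratio of the deposited signals of 2 probes on the same array (vertical axis), for 4 mock (grey) and 4 Bcl11b (red) arrays, with replicate numbers and bars for mean and SD. Dusp6 over Dusp1, Dusp4 or Spred1 separates the groups, and Dusp6 over Spry4 and Dusp4 over Spred1 do not.

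The probes most like a feedback probe, by the root mean square difference of centred log2 signal over the 8 arrays, were sought among those detected on all arrays. The nearest to Dusp6 was a probe for AW146242 (difference 0.0824), the nearest to Dusp4 a probe for Bat8 (0.0784), and the nearest to Spred1 a probe for Pold1 (0.0645), which encodes the catalytic subunit of DNA polymerase delta.

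Related genes were described by 4 lists, each gene on its brightest probe and counted when detected on at least 1 array. The list of further phosphatases was not limited to those that act on ERK. Among all probes so detected, 12.5% had an unadjusted p under 0.05 and a lower mean with Bcl11b, and 5.16% had a higher one. This lean towards lower signals depended on the scaling. Of the probes past the study's second criterion, 1494 of 2317 were lower after quantile normalization and 1118 of 2359 on division by the array median. Of 10 detected further dual-specificity phosphatases, 1 was lower, 2 were higher and 7 did not pass. Dusp14 was higher by 0.58 (standard error 0.19, adjusted p = 0.344 from limma). Dusp3, which can act on ERK, was higher by 0.59 (standard error 0.24, adjusted p = 0.473), and its other probes differed by 0.33 and 0.14 within the spread of the arrays. With no normalization between arrays the direction turned for Dusp14 (-0.12) and for Dusp3 on its brightest probe (-0.16) and on the others (-0.39 and -0.59). The median difference of the probes detected on all arrays was then -0.68. On division by the array median Dusp14 stayed higher (0.63), as did the Dusp3 probes (0.59, 0.36 and 0.16). Dusp22, detected in 3 mock samples and in none with Bcl11b, was lower by at least 1.04-fold (adjusted p = 0.339 from limma). The median difference of the 9 phosphatases detected on all arrays was 0.26, against -0.026 for all probes detected on all arrays. Of 7 other detected feedback regulators 1 was lower, 0 were higher and 6 did not pass. The lower one was Lztr1, an adaptor for the degradation of Ras proteins, at -0.52 (standard error 0.17, adjusted p = 0.354 from limma), with all Bcl11b arrays below all mock arrays. Their median difference, over the 6 detected on all arrays, was 0.11.

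Upstream of the feedback genes, 5 of 16 detected genes of the Ras-ERK cascade were lower, 0 were higher and 11 did not pass. The scaffold gene Gab1 was the 1 past the adjusted threshold, at -0.53 (standard error 0.080, adjusted p = 0.0701 from limma), and on division by the array median it no longer was (adjusted p = 0.255). It also lost that call with any 1 array left out except mock replicate 2 (adjusted p from 0.114 to 0.212 from limma). On division by the array median 2 cascade genes passed the unadjusted threshold, 1 of them lower. The absence of higher genes also depended on the probe. After quantile normalization, with each gene on its probe of smallest p instead, 6 passed the unadjusted threshold, 4 of them lower. The median difference of the 15 cascade genes detected on all arrays was -0.15. Downstream, 4 of 16 detected genes that ERK induces were higher, 0 were lower and 12 did not pass. With no normalization between arrays 4 of these genes passed, 2 of them lower, and on division by the array median 6 passed, 0 of them lower. Fos, Atf3 and Maff, all subunits of leucine zipper transcription factors, rose past the adjusted threshold, by 1.60, 1.47 and 1.00 on the log2 scale (standard errors 0.13, 0.14 and 0.14, adjusted p = 0.0137, 0.0196 and 0.0558 from limma). Fos and Atf3 kept that call with any 1 array left out, with adjusted p of at most 0.0682 and 0.0956. Maff lost it without mock replicate 3 or 4 or Bcl11b replicate 1, 2 or 3 (adjusted p from 0.116 to 0.183). With no normalization between arrays none of the 3 passed (adjusted p = 0.143, 0.125 and 0.504), although all stayed higher with Bcl11b. The change of Fos and Atf3 on these arrays was known when the list was written, so their count is not independent evidence. The median difference of the 16 ERK-induced genes was 0.24. Among the feedback genes on their brightest probes, 2 were lower and 1 was higher past the unadjusted threshold, 4 of the 7 detected did not pass, and the median over the 5 detected on all arrays was -0.052.

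**Figure D4:**
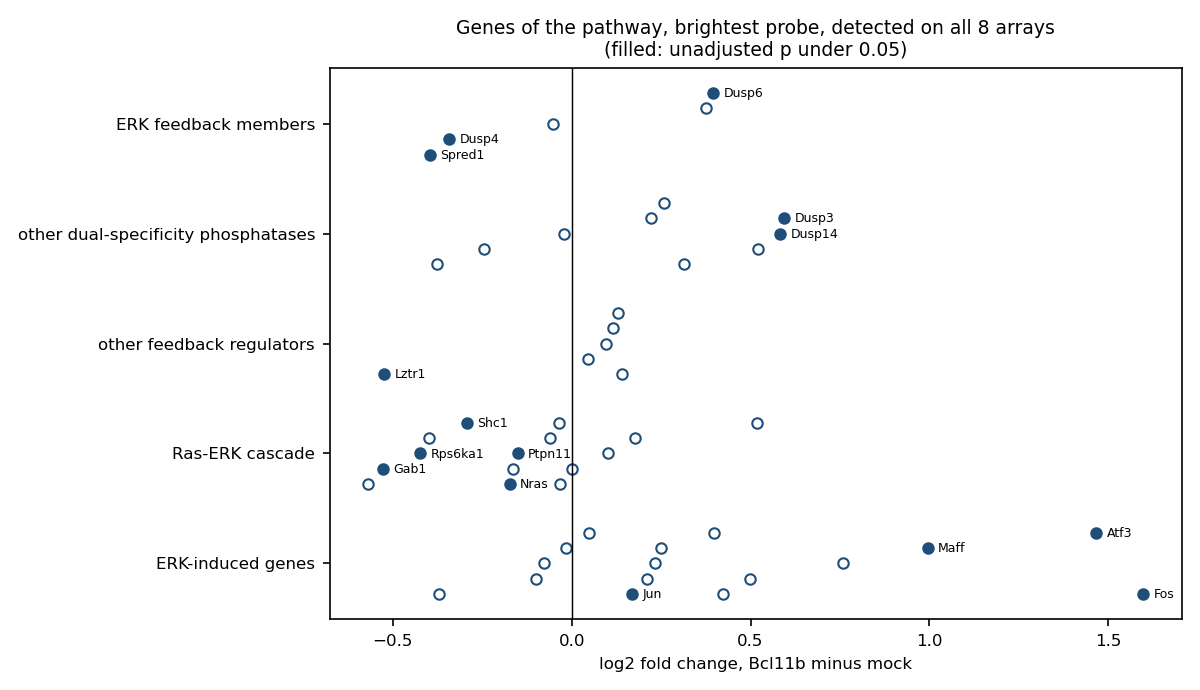
Log2 fold change (Bcl11b minus mock, horizontal axis) of the feedback genes and of 4 lists of related genes, each gene on its brightest probe and detected on all 8 arrays. Filled circles have an unadjusted p under 0.05 from limma and are named. Fos, Atf3 and Maff stand far to the right, the filled cascade genes are all to the left, and the feedback genes lie on both sides.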

How the data were processed

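Total RNA of STHdh cells was hybridized to Illumina MouseRef-8 v2 arrays, 4 Bcl11b and 4 mock, grouped by the titles in the labels. The authors deposited 1 intensity per probe, the mean bead signal after background subtraction in GenomeStudio without normalization between arrays, and a detection p-value per probe. Per array, 30.6% to 31.6% of the signals were 0 or negative. The intensities were quantile-normalized and compared in limma, as the study's methods state. Values under 1 were raised to 1 before the log2, a choice made here. The fit used limma 3.58.1 (R 4.3.3) over all 25697 probes with no covariate, two-sided, with Benjamini-Hochberg adjustment. The fit was tested on simulated data. No pair of arrays was a copy of another. The labels do not say that the replicates are separate cultures, though the study elsewhere describes separate sets of transfected cells, so p-values measure the spread between these arrays.

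All probes of the 10 genes are given, with full values where detected. The size of a change is left out for a probe detected on no array, and is a lower bound where 1 group lacks it. From each list, genes past an adjusted p of 0.10 are named, otherwise up to 4 with the smallest unadjusted p under 0.05. The members and lists were chosen with earlier results of these data known. Upstream sequences are from RefSeq, build GRCm38.p6, and were used for 8 of the 10 genes. The lists also hold genes without a probe. Alternatives were neqc, no normalization, array medians as divisors, an added offset of 16, the lowest signal shifted to 1, detection limits of 0.01 and 0.05 on 4 arrays, arrayWeights, limma-trend (robust), replicate numbers as blocks, another probe per gene, and each array left out.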

Additional observations from a re-analysis of the deposited data

How the results depend on the processing

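Of 230 fold changes of detected feedback probes under the alternatives, 193 kept their direction and their side of the unadjusted threshold, 23 no longer passed it, 7 newly passed it and 7 turned. The 7 were both Dusp6 probes (-0.19 and -0.34), Spry4 (-0.35) and the third Spred2 probe (-0.47) with no normalization between arrays, Dusp1 on division by the array median (0.073) and without Bcl11b replicate 3 (0.0049, range with an array left out -0.076 to 0.0049), and the brighter Dusp2 probe with arrayWeights (0.029). With no normalization the median difference of the probes detected on all arrays was -0.68. The cause was not tested. A feedback probe passed the adjusted threshold under 1 alternative, division by the array median. The 4 feedback probes under 0.05 became 2 on division by the array median, with the lowest signal shifted to 1, with detection under 0.01 on 4 arrays and with limma-trend. With no normalization they became 6, all lower. They became 2 to 4 with an array left out, with 2 without mock replicate 1 or 3 or Bcl11b replicate 1, 2 or 3. The 252 probes past the adjusted threshold became 57 with no normalization, 146 on division by the array median, 413 with neqc, 107 with the shift, 45 with limma-trend, 642 with arrayWeights and 87 to 637 with an array left out, the highest without mock replicate 2 and 249 without Bcl11b replicate 4. The 2317 probes under 0.05 with 1 group at least 25% higher became 6963 with no normalization, and 1632 to 3053 with an array left out. Of the lists, the 3 other phosphatases became 5 with arrayWeights and 1 to 4 with an array left out. The 1 other feedback regulator became 2 with no normalization, 0 on division by the array median, and 0 to 2 with an array left out. The 5 cascade genes became 12 with no normalization, 2 on division by the array median, 3 with the offset, the shift, either detection filter or limma-trend, and 2 to 5 with an array left out. The 4 ERK-induced genes became 3 to 7 with an array left out, the 7 without mock replicate 2.

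Same-numbered mock and Bcl11b arrays did not all deviate together (r across probes of 0.68, -0.63, 0.18 and 0.70 for numbers 1 to 4), so the number is not taken as a pairing. With the replicate number as a block 45 probes passed the adjusted threshold, 1 other phosphatase and 3 cascade genes were under 0.05, Spred1 no longer was (unadjusted p of 0.0524 from limma) and the second Dusp6 probe was (0.021). Fos, Atf3, Maff and Gab1 then had adjusted p of 0.152, 0.211, 0.187 and 0.272. With limma-trend, Maff (0.143) and Gab1 (0.236) did not pass the adjusted threshold.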
